A study of Mus musculus with 18 samples.

Results

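The transcripts described here come from the Dlk1-Dio3 imprinted locus of mouse chromosome 12: the noncoding RNAs Meg3, Rian and Mirg and the coding genes Dlk1, Rtl1 and Dio3. They are 6 of the 24062 genes listed in the count files, and 5 of them (all except Dio3) passed the filter on low counts that left 12140 genes for testing. The genes were chosen by the measured difference between the 2 cell lines, in which Meg3 and Rian were about 16-fold lower in 1 line, so every value that compares the lines is given for them as a description, without a test. The samples were NIH3T3 cells, an embryonic mouse fibroblast line, and a derived line, NIH3T3-mCherry-mTRIM21, that carries mouse TRIM21 joined to the red fluorescent protein mCherry (here the parental and the TRIM21 line). The promoter of the introduced gene, and whether the TRIM21 line is a single clone, are not given in the sources used here, so the introduced gene cannot be told apart from any other difference between the lines. Cells of each line were electroporated (1400 V, 20 ms, 2 pulses) with PBS, with 7.5 µg of bovine serum albumin (BSA) or with 7.5 µg of an antibody (IgG), and RNA was taken 16 h later. TRIM21 is a ubiquitin ligase that binds antibodies, and the study addressed the degradation of antibody-bound proteins. Each of the 6 groups had 3 samples, numbered 10, 11 and 14.

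At an imprinted locus the copies inherited from the mother and from the father are used differently. Here the noncoding RNAs are transcribed from the maternal copy, all in 1 direction, and carry small nucleolar RNAs (snoRNAs) and microRNAs (miRNAs) in their introns and exons, whereas Dlk1, Rtl1 and Dio3 are expressed mainly from the paternal copy. The choice is set by DNA methylation of a control region between Dlk1 and Meg3. The counts do not separate the copies, so "maternal" and "paternal" below are background labels of the genes and not measurements.

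In the GENCODE annotation of GRCm38, Meg3 lies at chr12:109541001-109571726, Rian at chr12:109603940-109661716 and Mirg at chr12:109729764-109749460, all on the plus strand. Dlk1 (chr12:109452823-109463336, plus strand) lies before Meg3, Rtl1 (chr12:109589193-109600330, minus strand) between Meg3 and Rian, and Dio3 (chr12:110279068-110281097, plus strand) beyond Mirg. The windows around the annotated starts of Meg3 and Rian are shown because these RNAs had the largest line differences among the 6 genes. Each window runs from 250 bases before to 50 bases after the start, from RefSeq on GRCm38.p6, plus strand, at chr12:109540746-109541045 for Meg3 and chr12:109603695-109603994 for Rian. Capitals mark matches to 3 motifs searched on both strands: TGACGTCA, the cAMP response element, TGCCGC, the hexamer of the imprint factor ZFP57, and TATAAA, the TATA box.

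Meg3 window: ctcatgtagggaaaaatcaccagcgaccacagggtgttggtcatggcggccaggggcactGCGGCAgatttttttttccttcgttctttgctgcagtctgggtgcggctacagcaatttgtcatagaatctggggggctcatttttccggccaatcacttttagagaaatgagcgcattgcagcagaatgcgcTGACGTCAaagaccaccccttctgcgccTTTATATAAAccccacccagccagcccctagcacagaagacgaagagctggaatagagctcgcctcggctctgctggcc
Rian window: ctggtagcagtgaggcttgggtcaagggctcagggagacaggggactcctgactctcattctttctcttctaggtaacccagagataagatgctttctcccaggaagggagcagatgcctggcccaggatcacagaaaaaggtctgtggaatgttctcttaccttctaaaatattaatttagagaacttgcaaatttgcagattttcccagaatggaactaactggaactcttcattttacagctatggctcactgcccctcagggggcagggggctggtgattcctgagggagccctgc

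The Meg3 window held TGACGTCA at position -57 from the start, TGCCGC on the minus strand at -190, and overlapping TATAAA matches at -29 (minus strand) and -25 (plus strand). Of all 32851 windows of 300 bases, 1.79% held TGACGTCA, 11.6% TGCCGC and 13.6% TATAAA. The Meg3 window had 13 CpG dinucleotides, against a median of 7 over all windows, and 62.1% of windows had fewer. Another RefSeq window of Meg3, not shown (chr12:109545148-109545447), had 1 CpG and no match to the 3 motifs. The Rian window had 0 CpG and no match to the 3 motifs. The RefSeq window of Mirg (10 CpG) had none of the 3 motifs either.

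The miRNA genes of the locus fall in 4 stretches, which are compared below. For each stretch the mature miRNAs of the miRNA gene with most counts are shown (RefSeq, GRCm38.p6, plus strand), with the seed, bases 2 to 8, in capitals. Mir434 lies between Meg3 and Rian, Mir1188 inside Rian, Mir668 between Rian and Mirg, and Mir3072 inside Mirg.

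mmu-miR-434-5p: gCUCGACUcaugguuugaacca
mmu-miR-434-3p: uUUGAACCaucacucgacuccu
mmu-miR-1188-5p: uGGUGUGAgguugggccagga
mmu-miR-1188-3p: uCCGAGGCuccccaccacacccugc
mmu-miR-668-5p: gUAAGUGUgccucgggugagcaug
mmu-miR-668-3p: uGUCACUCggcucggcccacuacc
mmu-miR-3072-5p: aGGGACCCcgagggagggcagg
mmu-miR-3072-3p: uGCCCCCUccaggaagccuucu

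No seed is shared among these 8. The libraries were polyA-enriched, so a count at a miRNA gene is a read that overlaps its hairpin, not a mature miRNA.

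Depth was similar in both lines, with 19509017 to 26521824 gene-assigned reads per parental sample (n = 9) and 20314542 to 29766433 per TRIM21 sample (n = 9). The limit that a count of 0 allows, 3 counts, came to 0.101 to 0.154 CPM (counts per 1000000 gene-assigned reads), and this covers counting error only. Trim21 itself, which checks the labels, had 142 to 223 counts in the parental and 19900 to 32225 in the TRIM21 samples. All 12 fibroblast markers exceeded a mean of 1 CPM in each line, with summed levels of 29337 to 39363 CPM in parental and 19810 to 33699 CPM in TRIM21 samples, and the part of this difference in the results below was not tested. Krt5 (epithelium), Cd3e (T cells) and Myod1 and Myog (muscle) were at 0 counts in every sample. The summed markers of epithelium, endothelium, muscle and adipocytes stayed at or below 2.60 CPM, and those of leukocytes at or below 8.65 CPM, most of it Cd68. Nothing in the labels says that samples came from separate cultures, so p-values measure only the spread between these samples. In such bulk samples, fewer cells expressing a gene and less RNA per cell cannot be told apart.

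Meg3, a long noncoding RNA at the start of the maternal transcription unit, was much lower in the TRIM21 line after every treatment. In parental samples 10, 11 and 14 its level was 149, 222 and 209 CPM after PBS, 124, 136 and 156 CPM after BSA, and 163, 147 and 154 CPM after IgG. In TRIM21 samples in the same order it was 9.84, 5.85 and 11.2 CPM after PBS, 8.66, 10.1 and 13.8 CPM after BSA, and 10.0, 9.79 and 10.5 CPM after IgG. The lines did not overlap: the lowest parental sample was far above the highest TRIM21 sample, and the TRIM21 samples remained well above the level of 3 counts. The means were 162.3 ± 32.5 CPM in the parental and 9.97 ± 2.10 CPM in the TRIM21 line (SD, n = 9), a fitted log2 difference of -4.01, or 16.1-fold. Within treatments the log2 difference was -4.42 after PBS, -3.67 after BSA and -3.94 after IgG.

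Rian, the host of a snoRNA cluster, had the same difference between the lines. Its parental levels in samples 10, 11 and 14 were 115, 131 and 174 CPM after PBS, 111, 109 and 112 CPM after BSA, and 102, 115 and 112 CPM after IgG. The TRIM21 levels were 7.27, 5.10 and 7.76 CPM after PBS, 8.10, 8.81 and 8.21 CPM after BSA, and 7.96, 6.63 and 7.18 CPM after IgG. Again no TRIM21 sample reached a parental sample. The means were 120.2 ± 21.5 and 7.45 ± 1.09 CPM (SD, n = 9), a log2 difference of -4.01, or 16.1-fold, and -4.37, -3.73 and -3.92 after PBS, BSA and IgG. Meg3 and Rian ranked 16 and 17 among the 12140 tested genes by the size of the decrease.

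Mirg, the host of a miRNA cluster at the far end of the unit, was lower by a much smaller factor. Its parental levels in samples 10, 11 and 14 were 31.1, 45.3 and 32.9 CPM after PBS, 39.1, 29.8 and 32.6 CPM after BSA, and 29.5, 30.4 and 26.6 CPM after IgG. The TRIM21 levels were 17.4, 11.95 and 19.2 CPM after PBS, 18.8, 16.6 and 17.4 CPM after BSA, and 17.2, 17.5 and 16.2 CPM after IgG. The lines did not overlap here either, but the gap between them was small. The means were 33.0 ± 5.73 and 16.9 ± 2.09 CPM (SD, n = 9), a log2 difference of -0.96, or 1.94-fold, and -1.17, -0.94 and -0.77 after PBS, BSA and IgG. Meg3, Rian and Mirg were thus 3 genes for which all 9 TRIM21 samples lay below all 9 parental samples, which held for 1.67% of tested genes. Over all tested genes, 6.18% were called between the lines at an adjusted p under 0.05 and 4.79% were called lower. Within treatments these shares were 1.71% and 1.51% after PBS, 0.848% and 0.766% after BSA, and 0.774% and 0.717% after IgG. The choice of the 6 genes used this contrast, so nothing is read from these shares about them.

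**Figure D1:**
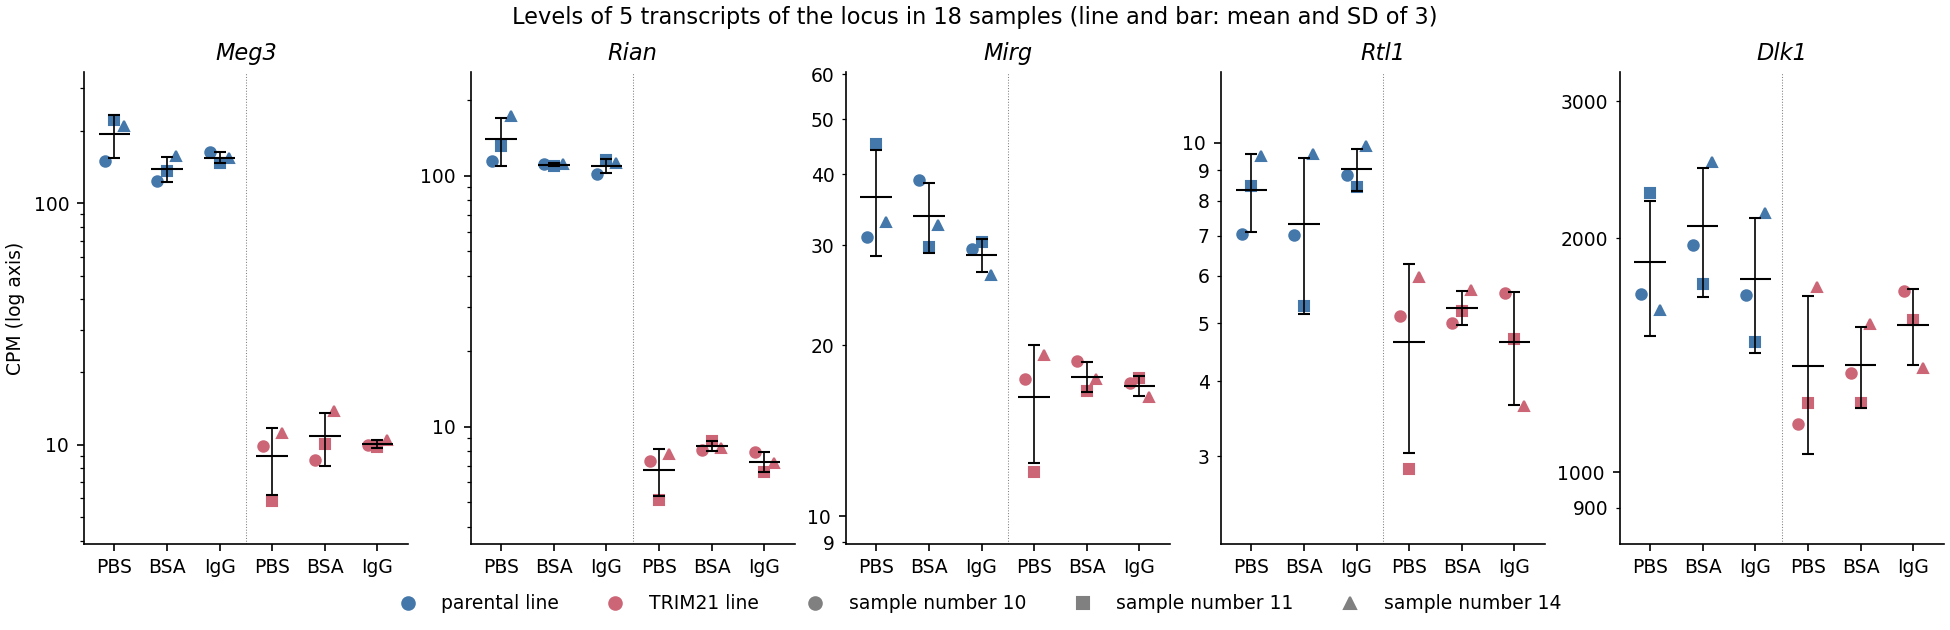
Level in CPM (log axis, a separate scale in each panel) of Meg3, Rian, Mirg, Rtl1 and Dlk1 in the 3 samples of each of the 6 groups, with marker shapes for sample numbers 10, 11 and 14 and lines and bars for the mean and SD of 3. The lines are separated widely for Meg3 and Rian and narrowly for Mirg, and they overlap for Rtl1 and Dlk1.

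The ratios between the noncoding RNAs show the same split. There were 0.750 ± 0.0963 Rian counts per Meg3 count in the parental line (range 0.593 to 0.898) and 0.762 ± 0.113 in the TRIM21 line (range 0.593 to 0.936; SD, n = 9), so the ranges overlapped almost fully. Per Rian count there were 0.279 ± 0.0499 Mirg counts in the parental line (range 0.190 to 0.352) and 2.29 ± 0.218 in the TRIM21 line (range 1.89 to 2.64; SD, n = 9). Every TRIM21 sample thus held more Mirg than Rian counts, and every parental sample fewer. These ratios need no library-size scaling.

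**Figure D2:**
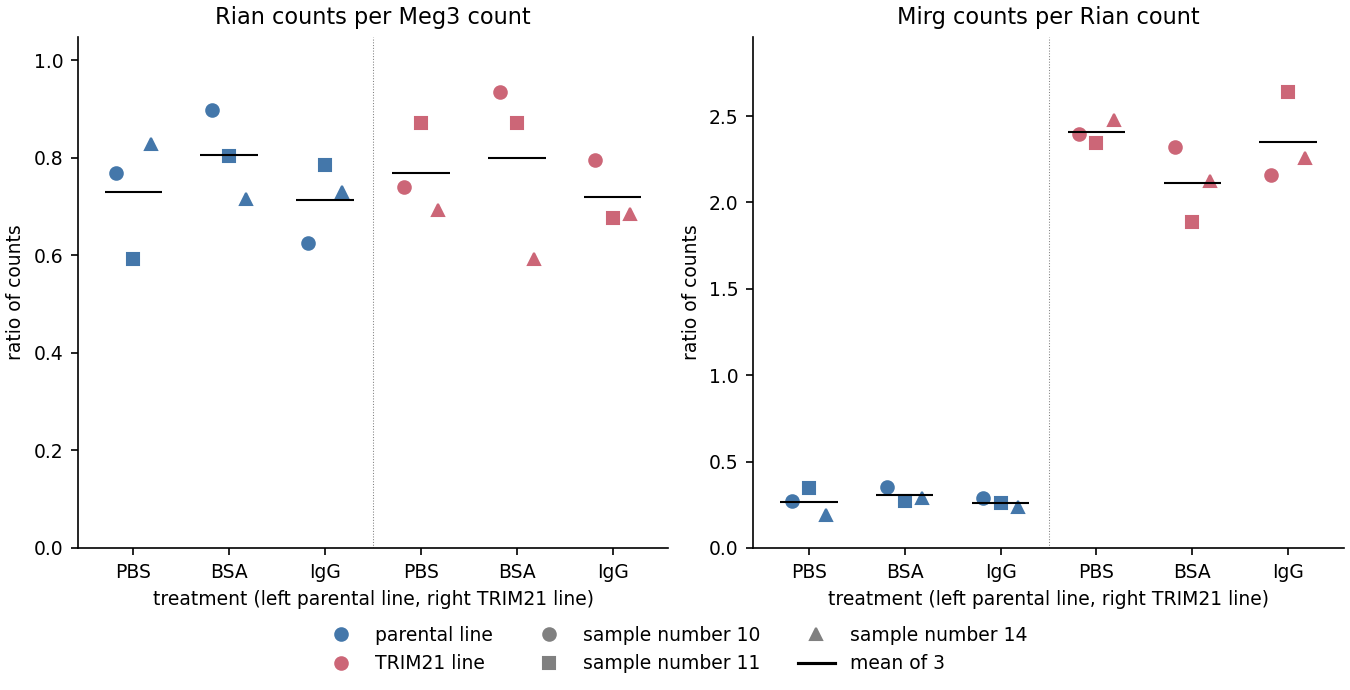
Ratio of Rian to Meg3 counts (left) and of Mirg to Rian counts (right) in each of the 18 samples by group, on linear axes that start at 0, with the mean of 3 as a line. The first ratio covers the same range in both lines, and the second is 0.190 to 0.352 in parental and 1.89 to 2.64 in TRIM21 samples.

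The 68 other rows of the files that lie within the 208 kb from the start of Meg3 to the end of Mirg (miRNA, snoRNA and antisense genes, placed by RefSeq on GRCm38) were summed over the 9 samples of each line in 4 stretches. This was chosen after the values of the 3 host RNAs were seen, and the 95% intervals (exact binomial, conditional on the summed counts) cover counting error only. Between the Meg3 and Rian starts, 18 rows summed to 154 parental and 8 TRIM21 counts, which is 4.89% of the parental level (2.07 to 9.87%). Inside Rian, 10 rows summed to 507 and 38 counts, or 7.05% of the parental level (4.93 to 9.81%). Both stretches were therefore as low in the TRIM21 line as their neighbours Meg3 (6.24%) and Rian (6.25%) on the same summed scale.

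Past Rian the picture changed. In the stretch from Rian to Mirg, 30 miRNA rows summed to 161 parental and 89 TRIM21 counts, or 52.0% of the parental level (39.7 to 67.8%). Inside Mirg, 10 miRNA rows summed to 419 and 224 counts, or 50.3% (42.6 to 59.3%), beside 51.1% for Mirg itself. The stretches were not tested against each other, since they were drawn after the host values were seen and the intervals leave out the spread between samples. Rows inside Rian or Mirg may also hold reads of those genes, so their likeness to the host is not separate support. RefSeq starts Mirg later than GENCODE does, so the last rows of the third stretch, Mir668 among them, lie inside the GENCODE gene.

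Per sample, the stretch between Meg3 and Rian held a median of 16 counts (13 to 22) in the parental and 1 (0 to 3) in the TRIM21 line. Inside Rian these were 57 (34 to 72) and 3 (0 to 11). From Rian to Mirg they were 17 (9 to 28) and 10 (6 to 16). Inside Mirg they were 47 (34 to 68) and 24 (8 to 42). The lines did not overlap in either of the first 2 stretches and overlapped in the other 2. Of 19 rows with any count up to the end of Rian, 14 had parental counts and 0 TRIM21 counts, against 3 of 30 past it. The first row with counts beyond the end of Rian was Mir411, 48.5 kb away, with 2 rows between them that had no count. Mir411 had 1 parental and 6 TRIM21 counts, and the next row with counts, Mir299a, had 2 and 0. Such low counts cannot place where the level changed.

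Single rows carried much of some sums. The snoRNA AF357359 gave 446 of the parental and 36 of the TRIM21 counts inside Rian, and without it the other 9 rows had 61 and 2, or 3.08% of the parental level (0.365 to 11.6%). In the first stretch the lncRNA 6430411K18Rik, antisense to Rtl1, gave 120 and 7 counts, and the 17 miRNA rows alone 34 and 1. Mir3072 gave 170 and 101 of the counts inside Mirg, and the other 9 rows had 249 and 123, or 46.5% (37.1 to 57.9%). Of the miRNAs printed above, Mir434 had 9 parental and 0 TRIM21 counts and Mir1188 5 and 0, while Mir668 had 19 and 11. A row that lies inside another gene may count reads of that gene, and the strand setting of the counting is not given in the sources used here.

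**Figure D3:**
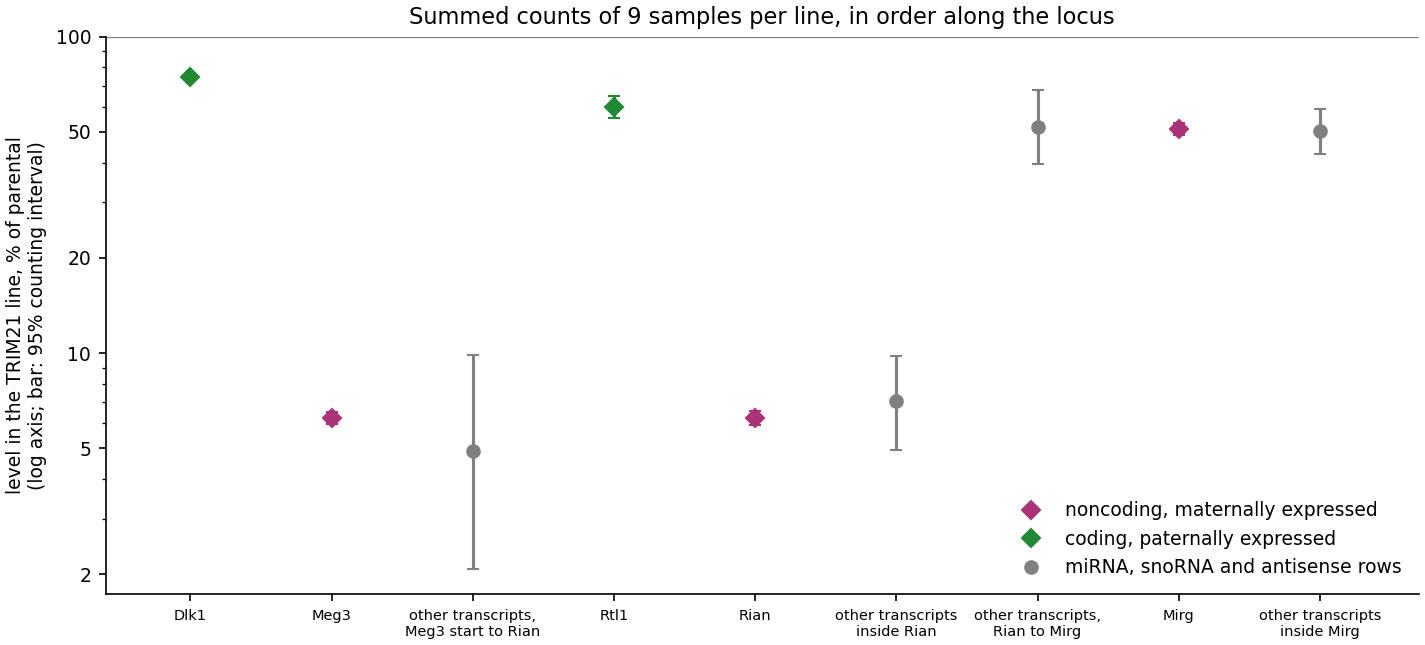
Level in the TRIM21 line as a percentage of the parental line (log axis), from counts summed over 9 samples per line, for 5 of the genes (diamonds) and for the other rows of the 4 stretches (grey circles), with 95% counting intervals that do not include the spread between samples. Points up to and inside Rian, apart from the paternally expressed genes, lie near 5 to 7%, and those past Rian near 50%.

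Of the paternally expressed genes, Dlk1, a membrane protein with EGF repeats that restrains adipocyte formation and is related to the Notch ligands, was abundant in both lines. Its parental levels in samples 10, 11 and 14 were 1695, 2288 and 1615 CPM after PBS, 1961, 1745 and 2505 CPM after BSA, and 1691, 1472 and 2155 CPM after IgG. The TRIM21 levels were 1154, 1226 and 1732 CPM after PBS, 1341, 1226 and 1549 CPM after BSA, and 1710.2, 1567 and 1362.5 CPM after IgG. The lines overlapped. The means were 1903 ± 346 and 1430 ± 216 CPM (SD, n = 9), a log2 difference of -0.41, or 1.33-fold, which was -0.45, -0.59 and -0.20 after PBS, BSA and IgG.

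Rtl1, a gene derived from a retrotransposon that the placenta needs, was low in both lines. Its parental levels in samples 10, 11 and 14 were 7.03, 8.47 and 9.49 CPM after PBS, 7.02, 5.34 and 9.56 CPM after BSA, and 8.83, 8.43 and 9.86 CPM after IgG. The TRIM21 levels were 5.13, 2.85 and 5.97 CPM after PBS, 5.003, 5.23 and 5.69 CPM after BSA, and 5.61, 4.70 and 3.63 CPM after IgG. The lines overlapped through the lowest parental sample. The means were 8.22 ± 1.49 and 4.87 ± 1.02 CPM (SD, n = 9), a log2 difference of -0.75, or 1.68-fold, and -0.83, -0.46 and -0.96 after PBS, BSA and IgG. Rtl1 overlaps 6430411K18Rik on the other strand, and without a stated strand setting their reads may not be fully separated; the antisense row was at 5.49% of its parental level (2.16 to 11.7%) and Rtl1 at 60.0% (55.5 to 64.9%).

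Dio3, the deiodinase that inactivates thyroid hormone, was not detected. It had 0 counts in 17 samples and 1 count in TRIM21 BSA sample 14, so no fold is given. In a single sample, a count of 0 still allows a level of up to 0.101 to 0.154 CPM.

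TRIM21 PBS sample 11 was the lowest sample of its line for Meg3, Rian, Mirg and Rtl1. Without it the log2 differences between the lines were -3.94 for Meg3, -3.96 for Rian, -0.91 for Mirg, -0.39 for Dlk1 and -0.68 for Rtl1.

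Per kb of annotated exon, the order of levels differed between the lines. In the parental line Dlk1 had 336 ± 61.2 CPM per kb, Meg3 8.97 ± 1.80, Rian 6.59 ± 1.18, Mirg 4.53 ± 0.786 and Rtl1 1.29 ± 0.234 (SD, n = 9). Neighbours in this order overlapped for Meg3 with Rian and for Rian with Mirg, and Rian came before Meg3 (14.9 against 11.2 CPM per kb) when the longest transcript was used as the length. In the TRIM21 line Dlk1 had 253 ± 38.2, Mirg 2.32 ± 0.286, Rtl1 0.766 ± 0.160, Meg3 0.551 ± 0.116 and Rian 0.408 ± 0.0598 CPM per kb, and only Dlk1 and Mirg stood clear of the next gene. With the longest transcript as the length, Rian (0.920 CPM per kb) came before Rtl1 (0.766) and Meg3 (0.686).

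**Figure D4:**
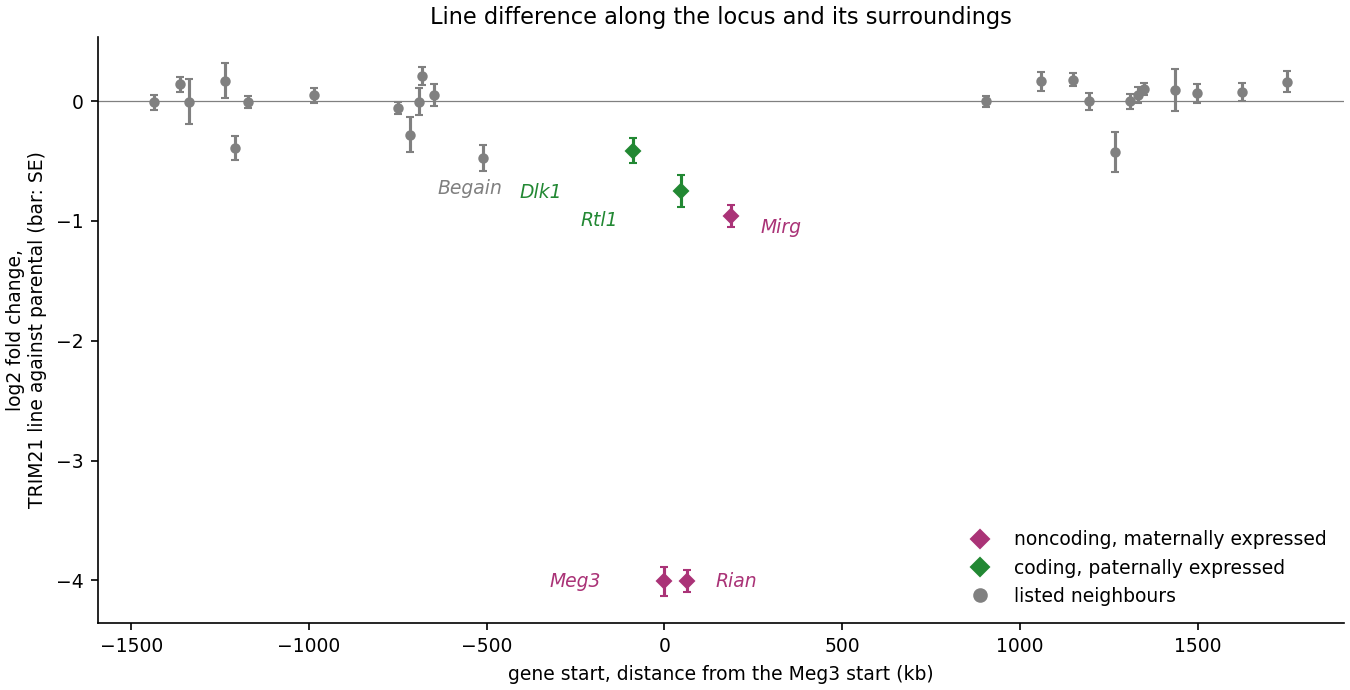
Log2 fold change of the TRIM21 against the parental line (bar: SE) for 5 genes of the locus (diamonds) and the tested neighbours from a fixed list (grey), by distance of the gene start from the Meg3 start in kb. Meg3 and Rian lie at -4.01, Mirg, Rtl1 and Dlk1 between -0.96 and -0.41, and the neighbours between -0.47 and 0.21.

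Treatment was not used to choose these genes, so its differences were tested, with edgeR's quasi-likelihood test and Benjamini-Hochberg adjustment over all 12140 genes. No gene of the locus passed in any of the 6 treatment comparisons within a line, where 0% of all tested genes did. Unadjusted p-values under 0.05 were found for 681 genes for IgG against PBS, 45 for IgG against BSA and 447 for BSA against PBS in the TRIM21 line, and for 325, 713 and 302 in the parental line. The DESeq2 and limma-voom alternatives also gave 0 genes in each. In the TRIM21 line, IgG against PBS gave log2 differences of 0.16 for Meg3 (95% interval -0.28 to 0.60, adjusted p = 0.812), 0.11 for Rian (-0.23 to 0.44, adjusted p = 0.839) and 0.062 for Mirg (-0.29 to 0.41, adjusted p = 0.914). For the coding genes it gave 0.17 for Dlk1 (-0.22 to 0.57, adjusted p = 0.775) and -0.014 for Rtl1 (-0.53 to 0.50, adjusted p = 0.990). These intervals exclude a 2-fold difference in either direction for all 5 genes.

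In the parental line, the same comparison gave -0.32 for Meg3 (-0.71 to 0.062), -0.35 for Rian (-0.63 to -0.064), -0.34 for Mirg (-0.68 to -0.00078), -0.074 for Dlk1 (-0.47 to 0.32) and 0.12 for Rtl1 (-0.36 to 0.60), each with an adjusted p of 1. The 3 noncoding RNAs had lower means after IgG than after PBS, and the unadjusted edgeR p-values were 0.0952, 0.0192 and 0.0495. BSA against PBS in the parental line gave -0.48 for Meg3 (-0.87 to -0.095) and -0.34 for Rian (-0.62 to -0.053), both with an adjusted edgeR p of 0.982. These comparisons share the PBS samples, in which parental Meg3 reached 222 and 209 CPM and Rian 174 CPM.

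Whether a treatment difference differed between the lines was tested as an interaction, and no gene passed for any of the 3 pairs of treatments (0% of tested genes, with 221 unadjusted p-values under 0.05 for IgG against PBS, 482 for IgG against BSA and 790 for BSA against PBS). The largest values for the locus were 0.75 for Meg3 (95% interval 0.17 to 1.33) and 0.65 for Rian (0.21 to 1.08), for BSA against PBS, with an adjusted edgeR p of 0.651 for both. The unadjusted edgeR p-values were 0.0139 for Meg3 and 0.00596 for Rian.

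**Figure D5:**
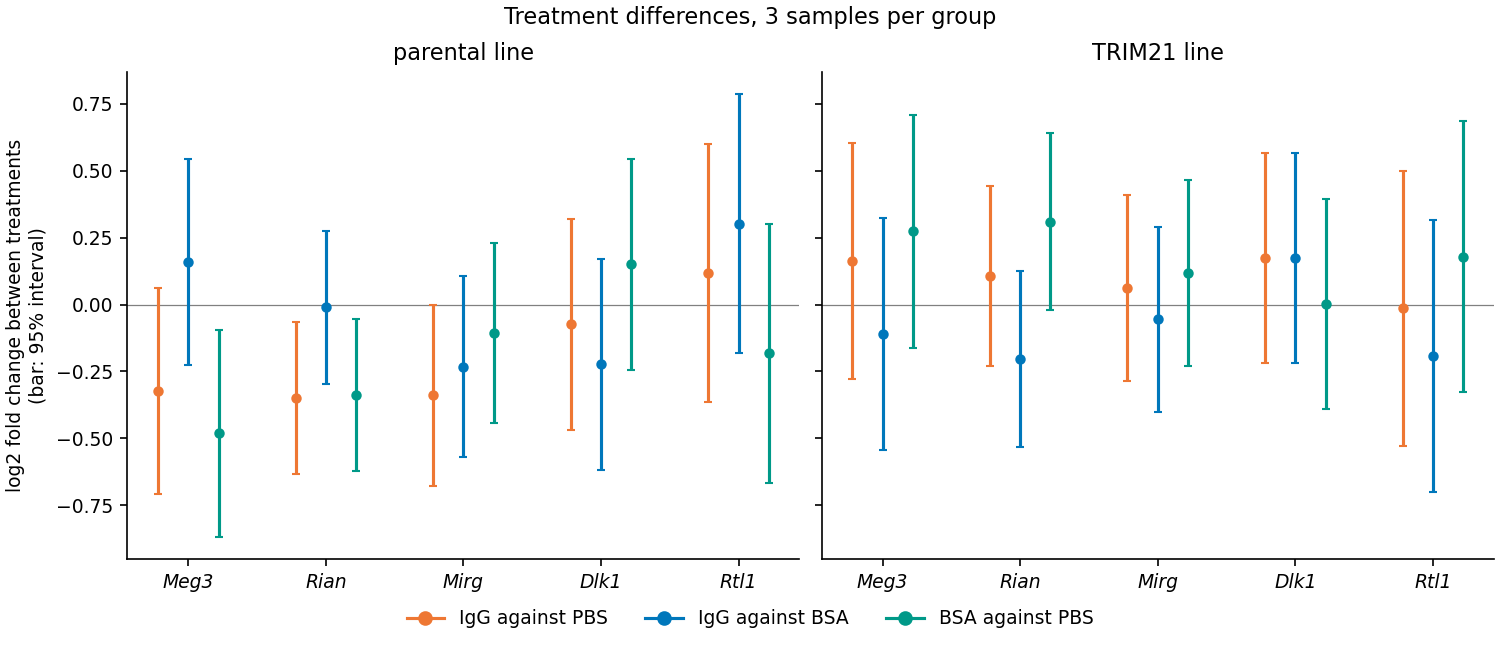
Log2 fold change between treatments for 5 genes in the parental line (left) and the TRIM21 line (right), with 95% intervals from the fit to all 18 samples and 3 samples per group. No difference passed the adjusted test, and the intervals in the TRIM21 line all include 0.

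The tested genes around the locus gave a median log2 line difference of 0.050, against 0.014 for all tested genes. Of 27 listed neighbours within 2 Mb, 25 were tested, 0 rose and 2 fell at an adjusted p under 0.05, that is 8.00%, against 6.18% of all tested genes (750 of 12140; 1268 without TRIM21 PBS sample 14). Begain, the nearest listed gene on the Dlk1 side, fell from 13.3 ± 2.39 to 9.53 ± 1.33 CPM (SD, n = 9), a log2 difference of -0.47 (SE 0.112, edgeR adjusted p = 0.0152). Cyp46a1, which makes a hydroxylated form of cholesterol, fell, with a log2 difference of -0.39 (edgeR adjusted p = 0.0229), a call lost (adjusted p 0.0507 to 0.0551) without TRIM21 BSA sample 10, TRIM21 IgG sample 11, parental BSA sample 14 or parental IgG sample 14. Wdr25 (0.052, edgeR adjusted p = 0.775), Ppp2r5c (-0.0017, 0.987) and Dync1h1 (0.17, 0.223), which with Begain are the nearest 2 listed genes on each side, did not pass. Without TRIM21 PBS sample 14 there were 4 calls in this list, and 1 without any of the 4 samples just named. Of 56 other listed transcripts of the locus, 52 were in the files and only Mir377, inside Mirg, was tested (log2 difference -1.19, edgeR adjusted p = 0.0609, unadjusted p = 0.00429). The number of these transcripts called was 0 here, 1 with DESeq2, with limma-voom and in most fits that left out 1 sample, and 2 without a filter, without TRIM21 PBS sample 14 or without TRIM21 IgG sample 10. Mirg was among the genes chosen on this same line contrast, and the Mir377 row may hold Mirg reads. Nothing is therefore read from the Mir377 p-values or from these counts of calls.

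Of 24 tested genes that set or read imprints, 1 rose and 1 fell (8.33%, against 6.18% of all tested genes; median 0.021). At an unadjusted edgeR p under 0.05, 5 of the 24 were higher and 4 lower. Over all 12140 tested genes, 2600 had such a p-value in either direction. DESeq2 called 4 of the 24, and over all tested genes it also called more than edgeR did. Dnmt1, the maintenance DNA methyltransferase, rose from 345.8 ± 32.6 to 415.4 ± 43.3 CPM, a log2 difference of 0.26 (SE 0.0728, edgeR adjusted p = 0.0379). This call was lost in 13 of the 18 fits that left out 1 sample (adjusted p 0.0526 to 0.0899), being kept only without TRIM21 PBS 10, TRIM21 PBS 14, TRIM21 IgG 14, parental PBS 10 or parental BSA 11. Aff3, which binds regulatory elements of this locus, fell from 24.2 ± 3.55 to 16.0 ± 1.81 CPM, a log2 difference of -0.60 (SE 0.0890, edgeR adjusted p = 2.80e-04). There were 5 calls in this list without TRIM21 PBS sample 14, and 1 where Dnmt1 was lost.

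The pathways that the coding genes act on were read against the same 6.18% of all tested genes. Of 11 tested Notch pathway genes, 1 fell (9.09%, median -0.026): the receptor Notch1, from 7.67 ± 0.849 to 4.74 ± 0.785 CPM, a log2 difference of -0.69 (SE 0.105, edgeR adjusted p = 3.19e-04), with 2 calls without TRIM21 PBS sample 14 or parental BSA sample 10. Of 12 tested adipocyte genes and 13 tested p53 pathway genes, Meg3 being linked to p53, 0 passed in edgeR (medians -0.042 and 0.092). Each list had 2 unadjusted edgeR p-values under 0.05. Over all 12140 tested genes there were 2600, a larger share than in either list. DESeq2 called 0 of the adipocyte genes and 1 of the p53 pathway genes, and limma-voom 0 of both. A single call appeared in each list without TRIM21 PBS sample 14 or TRIM21 IgG sample 14, and in the p53 list also without parental PBS sample 11 or parental BSA sample 11. Of 13 tested thyroid hormone genes, 1 rose and 1 fell (15.4%, median 0.069). Dio2, the deiodinase that activates the hormone, rose from 0.106 ± 0.0766 CPM, under the level of 3 counts, to 1.55 ± 0.289 CPM, a fitted log2 difference of 3.87 (edgeR adjusted p = 1.75e-08). Hr, a thyroid-responsive corepressor, fell from 4.503 ± 0.951 to 2.13 ± 0.624 CPM, a log2 difference of -1.07 (SE 0.175, edgeR adjusted p = 7.24e-04).

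Among imprinted genes at other loci, 0 of 27 tested genes rose and 6 fell (22.2%, median -0.068). Of all tested genes, 6.18% were called and 4.79% were called lower. This list, like the others, was chosen with earlier results of these data known. The maternally expressed noncoding RNA H19 fell from 23.3 ± 7.04 to 2.63 ± 0.938 CPM, a log2 difference of -3.14 (SE 0.218, edgeR adjusted p = 2.09e-08). Its paternally expressed neighbour Igf2, a growth factor, fell from 321.5 ± 107.5 to 166.4 ± 58.5 CPM, a log2 difference of -0.95 (SE 0.223, edgeR adjusted p = 0.0150). Asb4 fell from 11.1 ± 1.77 to 0.242 ± 0.1246 CPM, a log2 difference of -5.51 (SE 0.189, edgeR adjusted p = 5.23e-13), and Usp29 from 0.456 ± 0.170 to 0.225 ± 0.0658 CPM, a log2 difference of -0.98 (SE 0.239, edgeR adjusted p = 0.0187). The TRIM21 means of Asb4 and Usp29 were near the level of 3 counts (0.101 to 0.154 CPM), and Usp29 had 137 counts over all 18 samples. Both folds thus rest on few counts in the TRIM21 line. The lines overlapped for Igf2 and Usp29 and not for H19, Asb4 and the remaining called genes of the list. Of all tested genes, 1.67% had every TRIM21 sample below every parental sample.

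The genes whose log2 CPM was most like that of Meg3 over all 18 samples were Rian (Pearson's r = 0.996), Papss2 (0.992), Uty (0.991), Rgag4 (0.988) and Asb4 (0.987). Each differs between the lines, and the 18 samples include both lines, so the line difference enters each r. Mirg came 40th (r = 0.942). Over the 9 parental samples alone the most similar genes were Arhgap44 (0.937), Gfm2 (0.897), 6330408A02Rik (0.891), Yeats2 (0.889) and Eif5b (0.883), and Rian ranked 133 (r = 0.722). Over the 9 TRIM21 samples alone Rian ranked 1385 (r = 0.764), and Fignl2 (0.977) and Dclk1 (0.972) ranked first and next. By Spearman's rho, 0 of the 5 were again among the top 5 over 18 samples and 1 of the 5 over the parental samples. These are descriptions, without a test, over samples that also differ in depth and treatment and, for the 18, in line.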

How the data were processed

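The study measured polyA-enriched RNA in 18 samples. The authors deposited raw counts of reads per gene symbol, not normalized, 1 table per sample. The submitters' processing notes name genome build mm10 and the tools bcl2fastq 2.19.1.403, FastQC 0.11.5, STAR 2.5.1b, HTSeq 0.6.0 and DESeq2 1.6.3, without their roles; the annotation and the strand setting of the counting are not given in the sources used here. Lines for reads given to no gene (13.7 to 19.3% of the reads per sample) were left out. Replicates differed from each other beyond sampling noise (10.6 to 82.7 chi-square units for each degree of freedom), so all 18 were used.

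The model was fitted with edgeR 4.0.16 (R 4.3.3): filterByExpr (minimum count 10, minimum total 15), TMM factors (0.977 to 1.03), 1 mean per group fitted to all 18 samples, glmQLFTest, and Benjamini-Hochberg adjustment within each of 13 comparisons at 0.05. Standard errors come from the F statistic. CPM uses the TMM factors. Levels per kb use GENCODE exons. The alternatives were DESeq2 size factors, 2 other filters, the sample number as a block, the DESeq2 1.42.0 Wald test, limma-voom (limma 3.58.1), fewer groups or samples, and a larger prior count. In counts simulated for IgG against PBS in the TRIM21 line (12140 genes), 44.8% of genes changed 1.5-fold, 91.0% changed 2-fold and 97.0% changed 4-fold were recovered, with 5 false calls. There 67, 67 and 66 genes were changed together, the groups otherwise shared 1 mean per gene, and the sample number had no effect. With fewer changed genes the adjustment is stricter, so these rates do not give the recovery of a single changed gene.

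The genes, the gene lists and the tests were chosen with earlier results of these data known. Named besides the 6 genes and Trim21 are the nearest 2 listed neighbours on each side, up to 4 called genes of each list by size, and the 5 genes most like Meg3 over 18 and over 9 samples; miRNA, snoRNA and antisense rows were chosen after their values were seen.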

Additional observations from a re-analysis of the deposited data

Results flagged for a closer look

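The 3 noncoding RNAs were compared in 3 pairs of treatments. In 6 of these comparisons, all 3 samples of a treatment lay above the mean of the reference treatment in 1 line. In the other line all 3 lay below it. For Rian with IgG against PBS, 1 TRIM21 sample lay only 0.0050 above the mean in log2. The share of all tested genes that meets this rule was not counted, so nothing is read from the 6 about these RNAs. The tests of these differences did not pass after adjustment over all genes, and the comparisons share PBS or BSA samples. For IgG against PBS, where the TRIM21 samples lay above and the parental samples below, the interaction on the log2 scale was 0.48 for Meg3, 0.45 for Rian and 0.40 for Mirg (edgeR adjusted p = 0.972 for each). For BSA against PBS it was 0.75 for Meg3 and 0.65 for Rian in the same direction (edgeR adjusted p = 0.651 for both). For IgG against BSA it was -0.27 for Meg3 (edgeR adjusted p = 0.871), with the TRIM21 samples below and the parental samples above.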

How the results depend on the processing

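The sample numbers 10, 11 and 14 are not stated to mark shared cultures or days. Deviations of same-numbered samples from their group means correlated by 0.218 on average over 45 pairs (lowest -0.323), with 32 pairs over 0.1. The numbers were taken to pair samples only if every pair passed 0.1, which was not met, although 32 of the 45 also correlated best with their own number, a hint from the data that the samples may share more than a number. A replicate block for the number gave 1462 genes called between the lines (526 higher, 936 lower) in place of 750, 847 in place of 208 after PBS, 187 in place of 103 after BSA and 173 in place of 94 after IgG. The block gave 0 calls in every treatment and interaction comparison, as did the other alternatives.

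Between the lines, fits to the 6 samples of number 10, 11 or 14 alone called 314, 48 and 253 genes, and gave log2 differences of -4.30 for Meg3 and -1.20 for Mirg with number 11; fewer samples were used there. A minimum of 10 counts in every sample gave 132, 53 and 57 calls after PBS, BSA and IgG, the DESeq2 Wald test 451, 164 and 166, and only the groups compared 44 after PBS and 179 after IgG. Leaving out single samples gave 517 to 1268 calls for the mean over treatments (most without TRIM21 PBS 14), 104 to 1018 after PBS (fewest without parental PBS 14, most without TRIM21 PBS 14), 66 to 138 after BSA (fewest without TRIM21 BSA 10) and 69 to 148 after IgG (most without TRIM21 PBS 11). The level of the rows inside Rian was 3.08% without AF357359 in place of 7.05%. The cause of these shifts was not tested.

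The line differences of the 5 tested genes kept their sign in every alternative. Of the 1125 alternative values of their treatment and interaction differences, 27 changed sign and 0 passed the test (lowest adjusted p 0.284). Leaving out single samples gave, in the TRIM21 line for IgG against PBS, -0.044 to 0.37 for Meg3, -0.033 to 0.24 for Rian, -0.095 to 0.22 for Mirg and -0.24 to 0.23 for Rtl1; for BSA against PBS, -0.043 to 0.27 for Mirg, -0.12 to 0.21 for Dlk1 and -0.053 to 0.42 for Rtl1; and for IgG against BSA, -0.25 to 0.11 for Meg3. In the parental line it gave -0.045 to 0.043 for Rian (IgG against BSA), -0.24 to 0.099 for Dlk1 (IgG against PBS), and, for BSA against PBS, -0.21 to 0.081 for Mirg, -0.0052 to 0.32 for Dlk1 and -0.42 to 0.0085 for Rtl1. The interactions ranged from -0.32 to 0.051 for Dlk1 (BSA against PBS) and from -0.37 to 0.10 for Rtl1 (IgG against PBS). Dlk1 for BSA against PBS in the TRIM21 line was -0.0092 with DESeq2 size factors and with the DESeq2 Wald test. Rtl1 for IgG against PBS in the TRIM21 line was 0.019 with the replicate block, 0.013 with limma-voom and 0.0013 with only the groups compared. Between the lines, Wdr25 was -0.21 with number 11 alone, and Ppp2r5c was 0.0032 with DESeq2 size factors, 0.00029 without a filter, 0.0030 with the DESeq2 Wald test, 0.087 with number 11 alone and -0.025 to 0.015 without single samples. With the block, 1462 of all 12140 tested genes were called between the lines. The lists then gave 4 calls among 25 tested neighbours, 6 among 24 imprint regulators, 2 among 11 Notch pathway genes and 8 among 27 other imprinted genes. There was 1 call each among 12 adipocyte genes, among 13 p53 pathway genes and for the 1 tested other locus transcript. Low counts limit the miRNA and snoRNA rows and Dio3.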
